A study of Homo sapiens with 4 samples.

Results

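The cluster from miR-379 to miR-656 is the large group of microRNAs (miRNAs) of the imprinted DLK1-DIO3 region at 14q32. Its members were taken by name: a row of the count table belonged to the cluster when its miR number, with letters, copy number and arm ignored, was 1 of 35 numbers known from that cluster. This gave 58 of the 826 listed mature miRNAs, under 33 of the 35 numbers. miR-300 and miR-544 had no row. The cells were H661, an established human cell line derived from a large cell carcinoma of the lung, with no genetic change stated in the labels. They received either the solvent dimethyl sulfoxide (DMSO, 2 libraries) or 2.5 µM entinostat (2 libraries), with 8 h stated for both, and small RNA was sequenced to compare the treatments. Entinostat blocks the class I histone deacetylases, enzymes that remove acetyl groups from histones and are linked to gene silencing.

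In placental mammals the miRNAs of this region are expressed from the maternal chromosome, together with the long non-coding RNAs MEG3, MEG8 and MEG9, while its protein-coding genes, such as DLK1, are expressed from the paternal one. The miRNA hairpins are thought to be cut from long shared transcripts. The cluster is best known from neurons, embryonic tissue and placenta, and it is silenced in many tumours. Each hairpin can yield a mature miRNA from its 5′ side (5p) and from its 3′ side (3p). Bases 2 to 8 of a mature miRNA, the seed, are the main part that pairs with target messenger RNAs.

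RefSeq sequences (GRCh38.p14) were found for 57 of the 58 members, all on the plus strand of chromosome 14. The remaining member was miR-668-3p. These 57 came from 39 annotated hairpins within 44.7 kb, from 101022066 (MIR379) to 101066801 (MIR656). The first set below shows the 6 members above 1000 CPM (counts per 1000000 counts) and the pair of members with the lowest p in the comparison of treatments. Seeds are in capitals.
miR-409-3p: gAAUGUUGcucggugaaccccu
miR-381-3p: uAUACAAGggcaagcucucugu
miR-323a-3p: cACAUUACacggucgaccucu
miR-543: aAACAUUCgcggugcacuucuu
miR-654-3p: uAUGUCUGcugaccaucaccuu
miR-323b-3p: cCCAAUACacggucgaccucuu
miR-758-3p: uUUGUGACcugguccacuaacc
miR-329-3p: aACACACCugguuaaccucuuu

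These 8 miRNAs have 8 different seeds. miR-323a-3p and miR-323b-3p share an unbroken run of 16 bases, uacacggucgaccucu, which begins inside the seed, yet their seeds differ. Across the 57 members there were 49 distinct seeds. Only 7 seeds were shared, by 15 members, and none of the 49 occurred in another miRNA of the count table among the 729 rows with a RefSeq sequence. The sequences below are those with a shared seed in which both members had enough counts to be tested.
miR-379-3p: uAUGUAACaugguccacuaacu
miR-411-3p: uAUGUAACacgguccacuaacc
miR-654-5p: uGGUGGGCcgcagaacaugugc
miR-541-3p: uGGUGGGCacagaaucuggacu
miR-1185-1-3p: aUAUACAGggggagacucuuau
miR-1185-2-3p: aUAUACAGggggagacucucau
miR-487a-5p: gUGGUUAUcccugcuguguucg
miR-487b-5p: gUGGUUAUcccuguccuguucg

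Positions are counted from 1 at the 5′ end. miR-1185-1-3p and miR-1185-2-3p differ by 1 substitution (U20C), and miR-379-3p and miR-411-3p by 2 (U10C and U22C). Counts of such near-identical miRNAs are uncertain singly, because the rule for reads that fit both is not given in the sources used here. 3 member names (miR-329-5p, miR-329-3p and miR-376a-3p) each stand for 2 hairpins, whose reads cannot be told apart. Outside the seeds, the bases gguccac were found in 5 of 57 members (8.77%), namely miR-379-3p, miR-380-3p, miR-411-3p, miR-412-3p and miR-758-3p. None of the 672 other table sequences held them. The bases acacgg were found in 6 members (10.5%) and in 2 of the 672 others. In some members, such as miR-411-3p, they reach into the seed. In all, 6 runs were searched, on the mature strand only and with the seeds included. They were chosen after the sequences had been read. Of the other runs, acaugg was in 6 members and 6 of the 672 others, and gguuguc in 3 members and 1 other. In those 3 members gguuguc is the shared seed itself. The run uuguccgug was in 2 members and 0 others. These 2 members were miR-323b-5p and miR-494-5p. The remaining run of the 6, not spelled out here, was a stretch of the 16 bases shared by miR-323a-3p and miR-323b-3p. It was found in miR-323a-3p, miR-323b-3p and 0 others.

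Depth ranged from 547875 to 938559 miRNA counts per library. No entry of the table equals 1, so an entry of 0 may also stand for a single read, and no upper limit is given for entries of 0. Levels below are CPM after TMM scaling, a correction for library composition, and shares use unscaled totals. Markers of other cell types were checked by fixed lists. The summed level of the epithelial list (4 of 7 listed) was 41.0 to 56.7 CPM with DMSO and 59.3 to 77.3 CPM with entinostat. For mesenchyme (5 of 6 listed) it was 70.6 to 90.8 and 112.3 to 116.0 CPM. Of this list, miR-199a-3p and miR-199b-3p had identical counts in every library and may stand for the same reads. Their 5.27 CPM in entinostat replicate 2 entered the sum of 116.0 under both names. Sums over the muscle list (2 of 4 listed) were 5.34 to 9.63 and 6.59 to 12.9 CPM, and those over the blood list (1 of 5) were 0 to 3.56 and 0 to 5.52 CPM. The liver marker miR-122-5p had 5 counts in 1 DMSO library and 0 in the others. Neuronal miR-9-5p and miR-128-3p together reached 7924 and 8194 CPM with DMSO and 8162 and 6906 CPM with entinostat, while the neuron-defining miR-124-3p had no row. The part of these miRNAs in the results was not tested.

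The cluster as a whole held between 2.325 and 2.36% of the miRNA counts in every library. In the DMSO libraries its 58 members had 22078 and 13201 counts, 2.35% of each (exact Clopper-Pearson 95% intervals 2.32 to 2.38% and 2.31 to 2.39%). With entinostat they had 12916 and 17510 counts, 2.36% (2.32 to 2.40%) and 2.325% (2.29 to 2.36%). The means were 2.35 ± 0.000879% and 2.34 ± 0.0229% (SD, n = 2), and the groups overlapped (two-sided exact permutation test, p = 1.0). With 2 libraries against 2 this test cannot go below 0.333. The difference was -0.0105 percentage points, and it turned to 0.00205 without the 3 names that stand for 2 hairpins and to 0.00576 without entinostat replicate 2. Intervals cover counting error within single libraries only. No molecular identifiers are named, so the intervals may be too narrow even for that error. The data are from bulk RNA, so a change in the number of expressing cells and a change in the amount per cell cannot be told apart. The neighbouring proximal group of the same imprinted region (17 listed miRNAs, among them miR-127 and miR-433) held 1.13% and 1.13% with DMSO and 0.989% and 1.13% with entinostat (exact permutation test, p = 1.0).

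Within the cluster, abundance was concentrated in a few miRNAs and did not follow genome order. The 5 most abundant members held 62.5% and 62.4% of the cluster in DMSO libraries and 62.3% and 61.6% in entinostat libraries. The leading member in every library was miR-409-3p, studied in epithelial to mesenchymal transition, with 22.7% and 20.4% of cluster counts with DMSO and 21.0% and 20.0% with entinostat. In all, 6 members had a mean of 1000 CPM or more, 23 had 100 CPM or more and 18 lay under 10 CPM. All members above 1000 CPM were 3p miRNAs by name except miR-543, whose name gives no arm. 48 members had counts in every library and 10 were listed at 0 in at least 1 library. Recovery in ligation-based libraries can differ between sequences, so levels of different miRNAs are descriptions.

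Some neighbouring hairpins differed widely in level. The MIR409 hairpin (101065300 to 101065378, in an intron of MEG9 in GENCODE release 29) yielded 5883 and 5353 CPM with DMSO and 5572 and 5276 CPM with entinostat, both arms summed. The next hairpin, MIR412 (101065447 to 101065537), yielded 50.3 and 80.2 CPM and 62.6 and 50.1 CPM. In every library miR-409 was thus far above miR-412. A pattern of the same kind was seen at the other end. miR-379 and miR-411, the first 2 hairpins, averaged 787 and 597 CPM, miR-299 and miR-380 averaged 25.3 and 10.6 CPM, and miR-323a, 3.68 kb from the start, averaged 2183 CPM. The miR-376 group, whose members are known for RNA editing in brain, was low: miR-376a at 27.4, miR-376c at 5.51 and miR-376b at 2.47 CPM. miR-654 lies among them, 18.2 kb from the start, and averaged 2452 CPM.

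**Figure D1:**
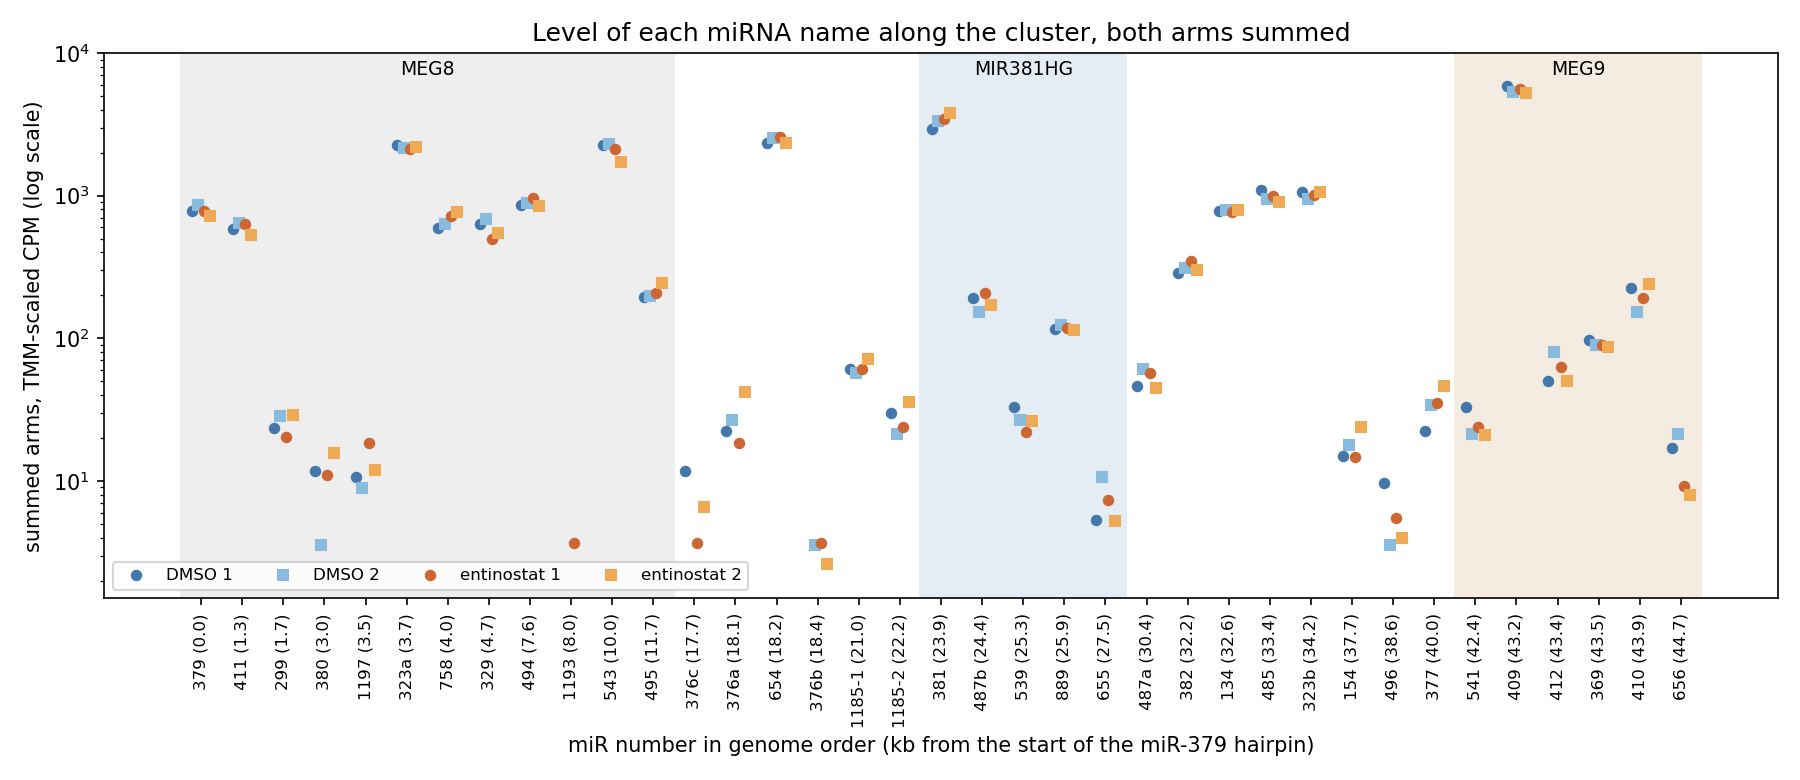
Level of 37 miRNA names in genome order, both arms summed (vertical axis, TMM-scaled CPM, log scale), 1 point per library; shaded spans lie within the named long non-coding RNA genes, values of 0 are not drawn and miR-668 is left out. High and low miRNAs lie side by side in places, with miR-409 at 5276 to 5883 CPM beside miR-412 at 50.1 to 80.2 CPM. Elsewhere neighbours are alike: miR-134, miR-485 and miR-323b averaged 785, 986 and 1020 CPM, and miR-154, miR-496 and miR-377 averaged 17.8, 5.67 and 34.4 CPM.

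By host transcript, the 12 names within MEG8 introns made up 34.4% of the cluster's level, the 5 within MIR381HG introns 15.8% and the 6 within MEG9 25.2%. The 14 names in none of these made up 24.6%. Of the MEG9 names, miR-410 overlaps an exon and the others lie in introns. The highest mean levels were those of miR-381 (3383 CPM) in MIR381HG and miR-409 (5521 CPM) in MEG9. In MEG8, miR-323a (2183 CPM) and miR-543 (2099 CPM) were close, and miR-543 was the higher in 2 of 4 libraries. The median name was at 595 CPM in MEG8, 118 CPM in MIR381HG, 75.8 CPM in MEG9 and 43.2 CPM outside them.

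Most cluster counts came from 3p arms. Rows named 3p held 76.3% and 75.2% of cluster counts with DMSO and 76.2% and 77.5% with entinostat. Both arms were listed for 20 miRNA names, and 15 of these had 100 or more counts over both arms and all libraries. Over all libraries pooled, the 3p arm was the more abundant in 10 of the 15 and the 5p arm in 5 (miR-369, miR-379, miR-382, miR-411 and miR-412). For miR-411 this rested on entinostat replicate 2: its arms had 832 (5p) and 819 (3p) counts in all and 609 and 637 without that library, which gives 11 and 4 hairpins. Over the whole table, the cluster's hairpins included, 146 hairpins had both arms listed and 100 or more counts. Among these the 3p arm was the more abundant in 76 and the 5p arm in 70. The rarer arm took a median of 10.4% of a hairpin's counts in the cluster, pooled over libraries, against 4.53% over those 146. These are descriptions with no test.

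The arms of miR-411 were recovered about equally, and those of miR-323b, miR-494 and miR-329 almost wholly from one side. The sequences of the miR-411 arms are set against those of miR-382, whose arm shares did not overlap between treatments.
miR-411-5p: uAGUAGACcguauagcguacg
miR-411-3p: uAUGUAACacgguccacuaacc
miR-382-5p: gAAGUUGUucgugguggauucg
miR-382-3p: aAUCAUUCacggacaacacuu

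For miR-411 the 3p arm took 50.4% and 51.7% of counts in DMSO libraries and 51.7% and 44.9% in entinostat libraries. The 2 arms therefore differ in their seeds but were present at like counts. miR-487a was next, with 51.2% and 41.2% (DMSO) and 25.8% and 52.9% (entinostat) from 5p, but each arm had only 8 to 23 counts per library. In miR-654 the 5p arm took 17.3% and 16.3%, then 16.0% and 18.4%. The 5p share was 0.104% in miR-323b, 0.610% in miR-494 and 0.661% in miR-329, pooled over libraries.

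The rarer arm's share did not overlap between treatments in 6 of the 15 hairpins, 3 higher with entinostat and 3 lower, beside 49 of 146 (33.6%) over the table. The exact permutation test used for these shares cannot go below 0.333 with 2 libraries against 2. In miR-382 the 3p share was 17.2% and 18.8% with DMSO (exact 95% intervals 12.8 to 22.2% and 13.3 to 25.3%). With entinostat it was 11.6% and 12.7% (7.44 to 17.1% and 8.65 to 17.7%), a difference of -5.81 percentage points (exact permutation test, p = 0.333, n = 2 and 2). In miR-409 the 5p share was 8.88% and 10.3% with DMSO and 10.4% and 12.5% with entinostat, a difference of 1.89 points (exact permutation test, p = 0.333). The nearest values of the groups, 10.3% and 10.4%, lay closer than the libraries of either treatment. The other hairpins were miR-379 and miR-494, higher by 1.72 and 0.327 points, and miR-369 and miR-410, at differences of -3.42 and -2.22 points. For miR-410 the values were 2 and 3 counts against entries of 0.

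**Figure D2:**
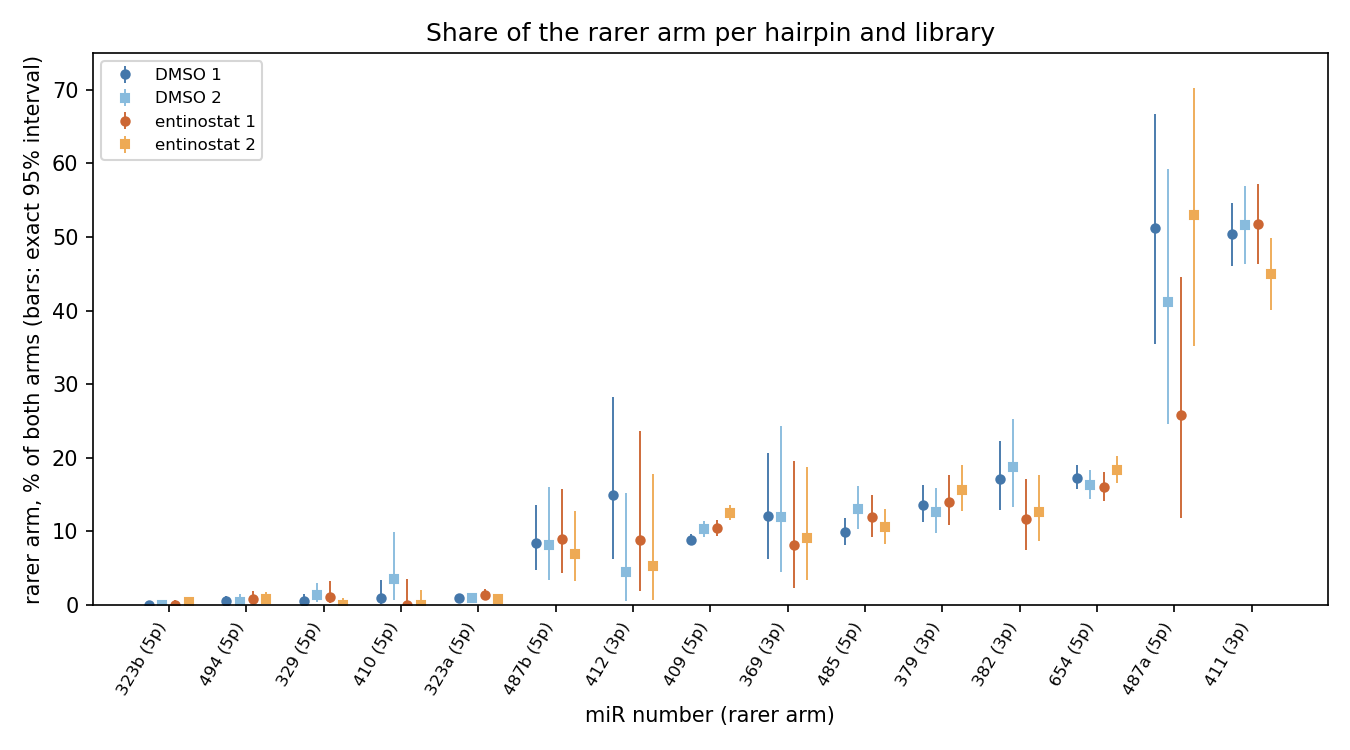
Share of the rarer arm among both arms of a hairpin (vertical axis, %) for the 15 names with 100 or more counts, by library, with exact 95% intervals for counting error. miR-411 lies near equal use in all libraries (44.9 to 51.7% from 3p), and in miR-382 both entinostat values (11.6 and 12.7%) lie under both DMSO values (17.2 and 18.8%).

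No member of the cluster passed the test between entinostat and DMSO. Of the 58 members, 38 had enough counts to be tested, and the edgeR quasi-likelihood test called 0 of them at a Benjamini-Hochberg adjusted p under 0.05, over all 401 tested miRNAs, of which 0.0% were called. The lowest adjusted p of a member was 0.595. At an unadjusted p under 0.05 there were 2 members, miR-758-3p and miR-329-3p, beside 27 of 401 (6.73%) over the table. DESeq2 called 0 members, and 0 of the 58 had an unadjusted p under 0.05, beside 1.33% of 826 rows. limma-voom called 0, with 3 of 38 at an unadjusted p under 0.05, beside 7.73% of 401. The edgeR likelihood ratio test called 0, beside 0.998% of 401, with 4 of 38 at an unadjusted p under 0.05, beside 8.48%. The labels do not state whether replicates were grown as separate cultures. The p-values therefore reflect only how these libraries vary, which may be technical. Without entinostat replicate 1 a single member, miR-543, was called.

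The members moved in both directions by similar numbers. Of the 38 tested, 21 had a log2 fold change above 0 and 17 below, with a median of 0.00843, beside 0.00466 over all tested miRNAs. With upper quartile scaling, which moved the median of all tested miRNAs to 0.12, 26 members were above 0 and 12 below. Without entinostat replicate 1, 15 were above 0 and 24 below. The median was 0.03 for the 22 tested 3p members and 0.00719 for the 15 tested 5p members. Libraries of the treatments did not overlap in 14 members (8 higher with entinostat, 6 lower), 36.8% of those tested, beside 40.6% over the table. Of the 11 tested members of the proximal group, 4 were above 0 and 7 below, with a median of -0.07 and 0 called (edgeR, lowest adjusted p 0.595), and 1 had an unadjusted p under 0.05.

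**Figure D3:**
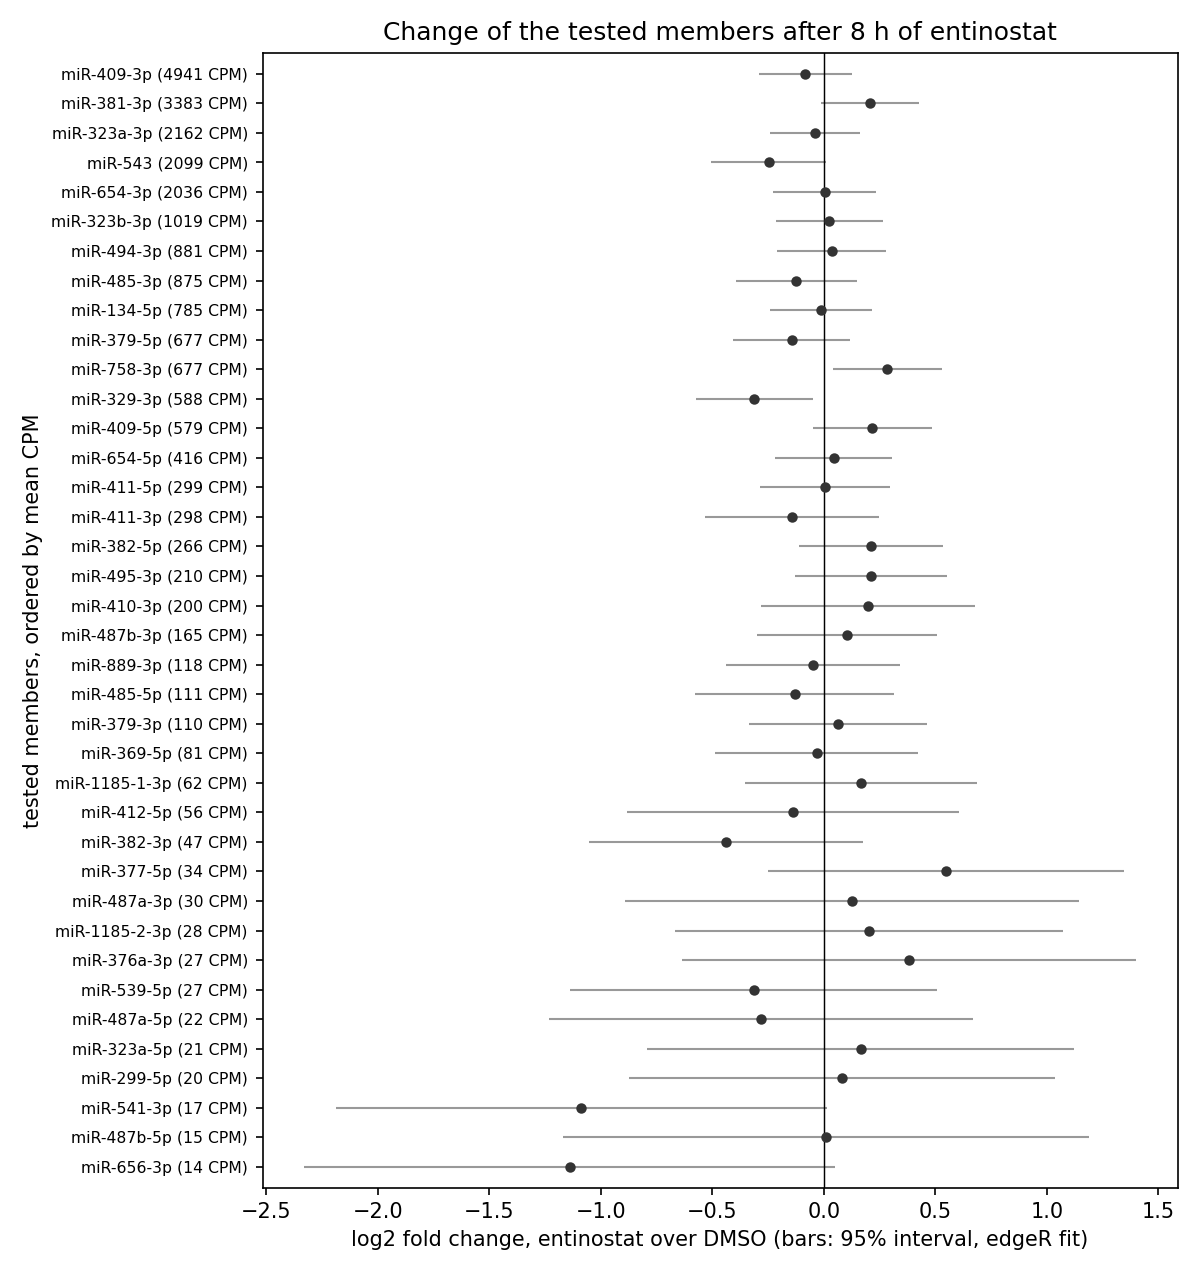
Log2 fold change of the 38 tested members (horizontal axis, entinostat over DMSO) with 95% intervals from the edgeR fit, ordered by mean CPM. Points lie on both sides of 0 (21 above, 17 below), and intervals widen toward the rare members at the bottom, such as miR-656-3p (-2.33 to 0.05).

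For the abundant members the intervals were narrow. Among the 23 members at 100 CPM or more, the 95% interval stayed within 1.5-fold up or down for 22 and within 2-fold for all 23. Among all 38 tested, 26 lay inside 2-fold, and for the other 12 a change of that size lay within the interval. miR-409-3p was at 5361 and 4801 CPM with DMSO and 4990 and 4614 CPM with entinostat. Its groups overlapped, and its log2 fold change was -0.08 (95% interval -0.29 to 0.13), or 0.03 with upper quartile factors. miR-323a-3p was at 2247 and 2136 against 2084 and 2182 CPM (log2 fold change -0.04, -0.24 to 0.16, or 0.08 with upper quartile factors). miR-654-3p was at 1944 and 2123 against 2170 and 1909 CPM (log2 fold change 0.00417, -0.23 to 0.24). Its sign turned under several settings.

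miR-134-5p, which limits dendritic spine growth in neurons by repressing LIMK1, had the smallest ratio of highest to lowest library among the 10 most abundant members. It was at 786 and 791 CPM with DMSO and 773 and 790 CPM with entinostat, a log2 fold change of -0.01 (-0.24 to 0.22), or 0.10 with upper quartile factors. The log2 fold change was 0.03 for miR-323b-3p (-0.21 to 0.26), 0.03 for miR-494-3p (-0.21 to 0.28) and -0.12 for miR-485-3p (-0.39 to 0.15). For miR-379-5p, from the first hairpin, it was -0.14 (-0.41 to 0.12) and for miR-379-3p 0.06 (-0.33 to 0.46).

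On the higher side, miR-758-3p, known for targeting the cholesterol transporter ABCA1, had the lowest p. It was at 592 and 631 CPM with DMSO and 723 and 762 CPM with entinostat. Both entinostat libraries were above both DMSO libraries, 1.22-fold on average (edgeR log2 fold change 0.29, SE 0.11, adjusted p = 0.595). miR-381-3p was at 2955 and 3331 CPM against 3453 and 3791 CPM, without overlap (log2 fold change 0.21, -0.01 to 0.43, edgeR adjusted p = 0.595). miR-409-5p was at 522 and 552 against 582 and 662 CPM, also without overlap (0.22, -0.05 to 0.48). Its partner arm miR-409-3p lay at -0.08. miR-382-5p was at 238 and 255 against 307 and 264 CPM (0.21, -0.11 to 0.53). The rarer miR-377-5p was at 22.5 and 33.8 against 35.0 and 43.5 CPM (0.55, -0.25 to 1.34). Without DMSO replicate 2 it stood at 0.79, and without DMSO replicate 1 at 0.22.

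On the lower side stood miR-329-3p, which with miR-134 takes part in activity-dependent dendrite growth in rodent neurons. It was at 627 and 677 CPM with DMSO and 495.1 and 551.0 CPM with entinostat. All values with entinostat were under those with DMSO, with a ratio of 0.806 (edgeR log2 fold change -0.31, SE 0.12, adjusted p = 0.595). The first mature miRNA of miR-329 starts 726 bases after miR-758-3p, and both lie in introns of MEG8. Their log2 fold changes stood at -0.31 and 0.29, and a difference between them was not tested. miR-543 was at 2266 and 2287 CPM with DMSO and 2126 and 1716 CPM with entinostat, without overlap (log2 fold change -0.25, -0.51 to 0.01, edgeR adjusted p = 0.595). Without entinostat replicate 1 its value was -0.42 and it was called (edgeR adjusted p = 0.0450, 1 of 39 members, beside 1.12% of 446 tested miRNAs), and without entinostat replicate 2 it was -0.10. Over all alternatives its adjusted p ranged from 0.0450 to 0.999. In the first of these fits the lone entinostat library is assumed to vary like the DMSO libraries.

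The lowest fold changes belonged to rare members. miR-541-3p was at 26.8 and 17.8 CPM with DMSO and 11.0 and 10.5 CPM with entinostat, from 25, 10, 6 and 8 counts (log2 fold change -1.09, -2.19 to 0.01, edgeR adjusted p = 0.595). miR-656-3p, from the last hairpin, was at 17.1 and 21.4 against 9.20 and 7.91 CPM, from 16, 12, 5 and 6 counts (-1.14, -2.33 to 0.05, edgeR adjusted p = 0.595). In both, the entinostat libraries lay under the DMSO libraries. Both reached the minimum count of 10 in their DMSO libraries only. They were therefore tested only through the treatment in which they were higher, and their low fold changes depend on that filter. miR-382-3p was at 49.2 and 58.8 against 40.5 and 38.2 CPM (-0.44, -1.05 to 0.17), opposite in sign to miR-382-5p from the same hairpin. miR-654-5p, which shares its seed with miR-541-3p, was at 407 and 413 against 414 and 430 CPM (0.04, -0.22 to 0.31).

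**Figure D4:**
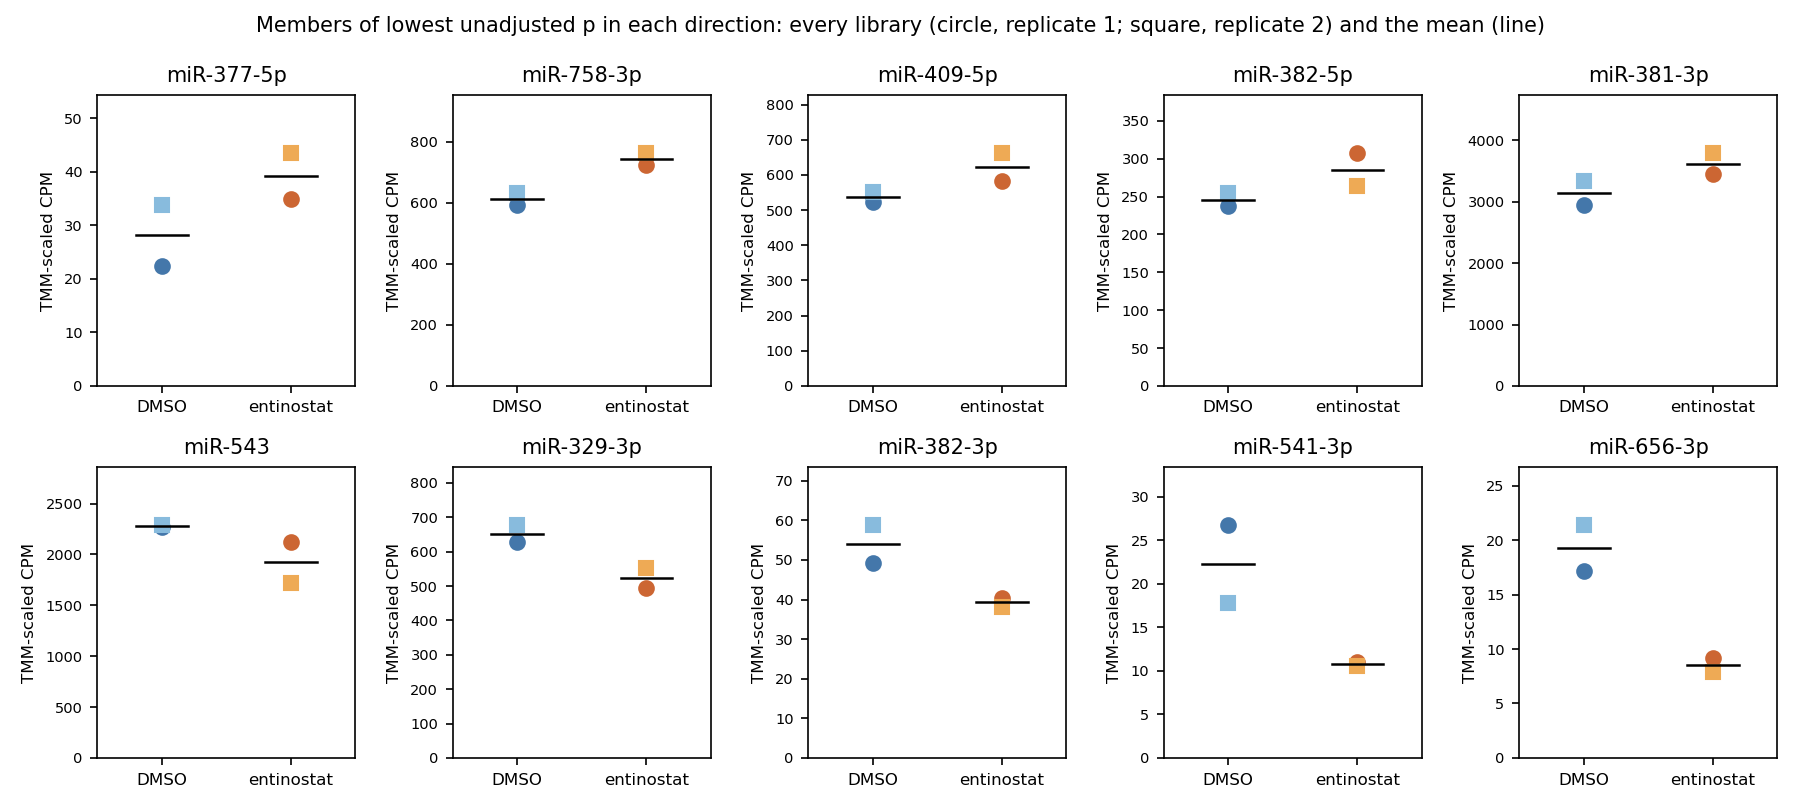
TMM-scaled CPM (vertical axes, each from 0) in every library for the 5 tested members of lowest unadjusted p in each direction, with the mean of each treatment as a line. The members were chosen by their p, so the lack of overlap in all 10 is a description, beside 40.6% without overlap over all tested miRNAs, and none passed the edgeR test (adjusted p 0.595 to 0.640).

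Of the members without overlap between treatments, those not yet described were miR-495-3p, a known regulator of the neurotrophin BDNF, and miR-539-5p. These and miR-487b-3p were chosen after their values were seen. miR-495-3p was at 194 and 198 CPM with DMSO and 206.2 and 244 CPM with entinostat (0.21, -0.13 to 0.55). miR-539-5p was at 33.2 and 26.7 against 22.1 and 26.4 CPM (-0.31, -1.14 to 0.51). The groups thus came within 1 CPM of each other for miR-539-5p. miR-487b-3p, reported as silenced by cigarette smoke in lung cells, was at 174 and 140.7 against 188 and 158 CPM, with overlap (0.10, -0.30 to 0.51). For the pair that differs by 1 base, the log2 fold change was 0.16 for miR-1185-1-3p (-0.36 to 0.68) and 0.20 for miR-1185-2-3p (-0.67 to 1.07), both with overlap.

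Libraries of one treatment also differed in some members. On the log2 scale, the widest gap within a treatment among members of 100 CPM or more was in miR-410-3p (0.58), at 222 and 148 CPM with DMSO, with 191 and 239 CPM for entinostat. miR-411-3p followed, at 292 and 331 CPM with DMSO and 328 and 240 CPM with entinostat (log2 fold change -0.14, -0.53 to 0.25). miR-485-5p, known for limiting the synaptic vesicle protein SV2A, was at 108 and 125 CPM with DMSO and 118 and 94.9 CPM with entinostat (-0.13, -0.58 to 0.32). As a root mean square over the 23 members at 100 CPM or more, DMSO replicates differed by 0.183 and entinostat replicates by 0.196 log2 units. Pairing each DMSO with each entinostat library gave 0.168, 0.177, 0.211 and 0.262. At this level the range across treatments contained the values within treatments. Over the 13 members at 500 CPM or more it did not: DMSO replicates differed by 0.131 and entinostat replicates by 0.152, and the pairs across treatments by 0.156, 0.174, 0.212 and 0.237. Over all 237 miRNAs at 100 CPM or more, the values were 0.196 and 0.235 within treatments and 0.216 to 0.253 across them. These values carry no test.

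The 20 members not tested had 2 to 35 counts over the 4 libraries together. The closest to the filter were miR-154-5p with 7 and 8 counts (DMSO) and 6 and 14 (entinostat), miR-1197 with 10 and 5 against 10 and 9, and miR-369-3p with 11 and 6 against 4 and 6. Just above it stood miR-487b-5p with 15 and 7 against 10 and 9 counts, and miR-541-3p and miR-656-3p, described above. A row passed only with enough counts in at least 2 libraries, so the tested members do not stand for all members.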

How the data were processed

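RNA was extracted with TRIzol, and 1 µg per sample entered New England Biolabs small RNA library preparation, per the labels' protocols. bcl2fastq 2.18 was used, per the submitters' processing notes, while aligner, counter, annotation and build were not given in the sources used here. The authors' deposited count table holds 1 whole number per miRNA name and library. The deposited CPM values equal count over column total within 0.0001 CPM in 100% of rows and were used only for that check. Totals ran from 547875 to 938559.

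Counts of the whole table were filtered by filterByExpr (minimum count 10, minimum total 15) and then scaled by TMM on the rows kept. These rows were tested together with edgeR 4.0.16 (quasi-likelihood, treatment only) in R 4.3.3. Adjusted p-values run over all 401 tested rows. Intervals use the fitted standard error. Shares have exact Clopper-Pearson intervals, and single values were compared by exact permutation. Alternatives covered scaling, filter, tool (DESeq2 1.42.0, limma 3.58.1), replicate block and each library left out. Python 3.11.15 with pandas 2.3.3 and SciPy 1.17.1 was used. Members were looked up in RefSeq (GRCh38.p14) and GENCODE release 29 (GRCh38).

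Named were the 10 most abundant members, the 5 of lowest p per direction, both arms of the first and last hairpins, the 3 hairpins of most and of least equal arms, the most abundant member of each seed shared by tested members, the 3 widest gaps within a treatment and the 3 on each side of the filter. Members, lists and rules were chosen with earlier results of these data known.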

Additional observations from a re-analysis of the deposited data

How the results depend on the processing

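The count of cluster members called was 0 in the 14 alternatives, except that leaving out 1 library gave 0 to 1 (miR-543, called without entinostat replicate 1). Over all miRNAs the edgeR likelihood ratio test called 4, none of them a member, and leaving out 1 library gave 0 to 5. The median log2 fold change of tested members became 0.13 with upper quartile factors and ranged from -0.0392 to 0.0105 with 1 library left out. That of the proximal group became 0.0477 with upper quartile factors and 0.00247 with DESeq2, and ranged from -0.15 to -0.0330 with 1 library left out. The difference in cluster share was 0.00205 percentage points without names that stand for 2 hairpins, and -0.0267 to 0.00576 with 1 library left out. The median share of the rarer arm was 9.26% over the 12 hairpins of 500 or more counts, and 9.66 to 10.4% with 1 library left out. The number of hairpins with the more abundant 3p arm was 10 to 11 of 15 with 1 library left out, an alternative chosen after seeing the data. The cause was not tested for any of these, apart from the fewer hairpins or libraries used.

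Of the 28 named members tested, 15 kept one sign in every alternative and 13 did not. With upper quartile factors the sign turned for miR-409-3p (0.0308), miR-323a-3p (0.0753) and miR-134-5p (0.10). For miR-654-3p it turned with size factors of the DESeq2 kind (-0.00172), a mean CPM of 10 or more (-0.00903), DESeq2 (-0.00331) and the 5 most abundant miRNAs left out (-0.00723). For miR-411-5p it turned with a mean CPM of 10 or more (-0.00694), DESeq2 (-0.00196) and the 5 most abundant left out (-0.00523). For miR-487b-5p it turned with a mean CPM of 10 or more (-0.000893), limma-voom (-0.0184) and the 5 most abundant left out (-0.00419).

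With 1 library left out, the log2 fold change ranged from -0.10 to 0.0915 for miR-654-3p, -0.0817 to 0.10 for miR-323b-3p, -0.0686 to 0.12 for miR-494-3p, -0.27 to 0.00244 for miR-485-3p and -0.0622 to 0.0324 for miR-411-5p. It ranged from -0.38 to 0.0765 for miR-411-3p, -0.42 to 0.59 for miR-487a-3p, -0.29 to 0.0276 for miR-485-5p, -0.0602 to 0.54 for miR-410-3p and -0.31 to 0.33 for miR-487b-5p.

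The treatments share replicate numbers in the titles, but no label says that a number marks a shared batch. A fit with the replicate block called 0 members and 0 miRNAs in all, with 25 at an unadjusted p under 0.05 against 27 without it. Deviations of same-numbered libraries from their treatment means correlated at -0.116 over 401 tested miRNAs. With the numbers crossed, an alternative chosen after seeing the data, 0 members and 0 miRNAs were called. Depth limits the rare members most: 12 of 38 tested members had an interval reaching past 2-fold.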

Other observations

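The following miRNAs were singled out after their values were seen, and the values carry no test. miR-541, in an intron of MEG9, fell under the minimum of 100 counts for the arm comparison. Its 5p arm had 6 and 2 counts in the DMSO libraries against 7 and 8 in the entinostat libraries, and its 3p arm 25 and 10 against 6 and 8. The 5p share was therefore 19.4% and 16.7% with DMSO and 53.8% and 50% with entinostat, without overlap, but the exact 95% intervals of single libraries were wide (2.09 to 48.4% in DMSO replicate 2 and 24.7 to 75.3% in entinostat replicate 2). miR-412-5p, next to the abundant miR-409, was at 42.8 and 76.6 CPM with DMSO and 57.1 and 47.5 CPM with entinostat, so that the DMSO libraries lay on both sides of the entinostat libraries. In the proximal group of the same region, entinostat replicate 1 held 5421 of 547875 counts (0.989%, exact 95% interval 0.963 to 1.02%). The other libraries held 1.13% each, and the same library held 2.36% for the cluster described here.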
